A study of Caenorhabditis elegans with 12 samples.

Results

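The C-type lectin genes of Caenorhabditis elegans, named clec, were followed in whole-animal RNA of 4 genotypes. All genes whose WBcel235 symbol is clec- with a number were taken, which gave 240 of the 46934 gene entries. Members were taken by symbol alone, but the family was chosen with earlier results of these data known. Adult hermaphrodites not yet fertile were grown at 20 °C on OP50, the standard Escherichia coli food, and 3 libraries from independent harvests were made per genotype. The groups were dis-3(L75Q) (strain VC40130), eat-2(ad1116) (strain IJ173), the double mutant that carries both alleles (strain IJ2290) and wild type (strain N2). DIS-3 is the catalytic RNA-degrading subunit of the exosome, and eat-2 mutants pump food slowly and serve as a genetic model of dietary restriction. Each genotype was 1 strain, so each comparison is between strains, and what the allele contributes and what other variants of that strain contribute cannot be told apart.

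C-type lectin-like domains are protein folds, many of which bind sugars, sometimes with calcium. In C. elegans the family is large, many members carry a secretion signal, and many are transcribed in the intestine, where food bacteria are met. Transcripts of various members change when animals are exposed to pathogens, and loss of single members has been found to make animals either more or less resistant, depending on the gene and the microbe. A clec gene is therefore often used as a readout of intestinal immune programmes, while the binding partners of most members are not known.

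Libraries held 31812392 to 32773803 counts and 18219 to 18841 genes above 0. Between 163 and 178 clec entries per library had a count above 0. Marker lists for molting, oocytes, intestine, hypodermis, sperm and neurons had no gene at 0 in all libraries. The libraries differed in developmental stage within genotypes. A stage score, the mean log2 level of 31 molting and new cuticle genes minus the same mean over 32 oocyte or eggshell genes, was 2.38, 1.9 and -0.62 in dis-3(L75Q) replicates 1 to 3 (the replicate order used throughout), -0.84, 2.32 and 2.32 in eat-2(ad1116), 1.45, 0.89 and 0.82 in double mutants, and -2.4, 0.63 and -3.22 in wild type. The scores of the 3 mutant groups therefore lay mostly above those of wild type, and dis-3(L75Q) replicate 3, eat-2(ad1116) replicate 1 and wild-type replicate 2 stood apart from the others of their genotype. The part of stage in the differences below was not tested, and its values stand beside the results.

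The family as a whole took a small share of the RNA, between 0.323% and 0.367% of the counts. In bulk RNA such as this, fewer cells of a type and less RNA per cell cannot be told apart. Its summed level was 3622 ± 236 CPM (read counts scaled to a common library size) in dis-3(L75Q) animals, 3468 ± 304 in eat-2(ad1116), 3349 ± 48 in the double mutant and 3397 ± 159 in wild type (SD, n = 3 each). Across the 12 libraries it ran from 3118 to 3790 CPM, and the groups overlapped. The order of the group means depended on the scaling: with library totals they were 3428 CPM in dis-3(L75Q) animals, 3616 in eat-2(ad1116), 3441 in double mutants and 3338 in wild type. The 5 members highest by CPM made up 44% of it, so the sum says little about the other members.

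Levels among members spanned several orders of magnitude. Of the 240 entries, 27 had no count in any library, 79 had too few counts to be tested (at most 93 in all), and 134 entries with 132 symbols were tested. Of those tested, 48 had a mean of at least 10 CPM, 51 lay between 1 and 10 CPM, and 35 lay under 1 CPM. Per kilobase of coding sequence, clec-63 was highest at 503 CPM, followed by clec-50 at 357, clec-47 at 208, clec-87 at 166, clec-41 at 161, clec-150 at 145 and clec-1 at 127. The next were clec-209 at 83.3 for each of its entries, clec-65 at 82.3, clec-48 at 59.1 and clec-84 at 57.2 CPM per kilobase. The most abundant members were thus a mixture of genes that differed between strains, such as clec-47 and clec-209, and genes such as clec-50 and clec-63 that were not called in any comparison.

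**Figure D1:**
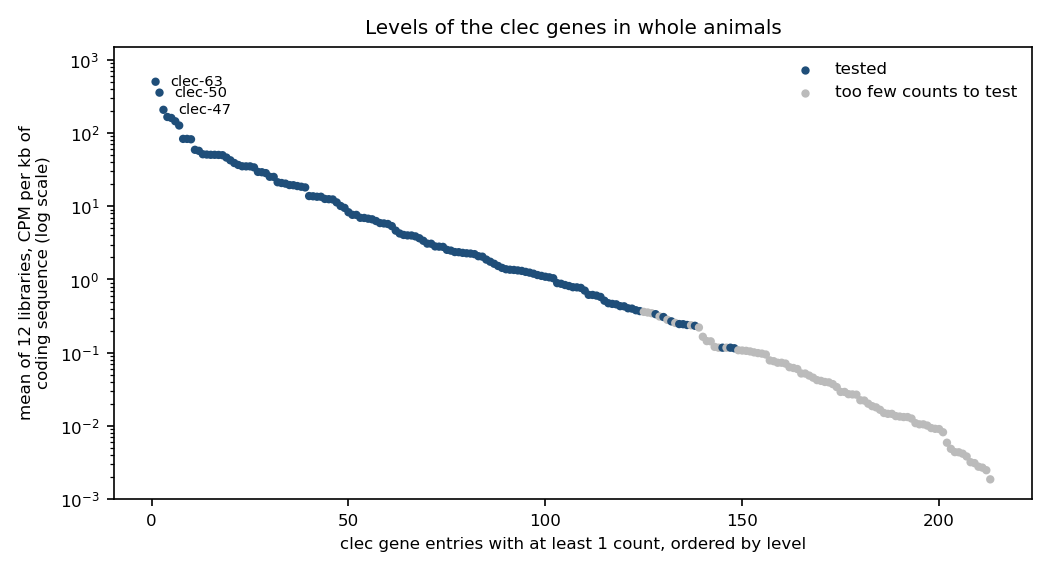
Level of each clec entry with at least 1 count, as the mean of 12 libraries in CPM per kilobase of coding sequence (log scale), in order of level. Dark points were tested and grey points had too few counts. The highest entries are clec-63 at 503, clec-50 at 357 and clec-47 at 208 CPM per kilobase.

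The 2 most abundant genes were not called in any comparison. The level of clec-63 was 703, 628 and 555 CPM in dis-3(L75Q) animals, 497, 812 and 686 in eat-2(ad1116), 648, 663 and 674 in double mutants, and 537, 591 and 446 in wild type. Its double-mutant libraries all lay above the wild-type ones, and 37.2% of all genes had no overlap in that comparison. In dis-3(L75Q), eat-2(ad1116) and wild type, the library apart on the stage score lay beyond the other 2 on the side of its score. The level of clec-50 was 322 ± 39 CPM in dis-3(L75Q) animals, 383 ± 54 in eat-2(ad1116), 328 ± 5.8 in the double mutant and 341 ± 21 in wild type (SD, n = 3 each). For clec-50 the log2 change was 0.17 ± 0.12 (SE) in eat-2(ad1116) against wild type, with an adjusted p of 0.37. The estimated counts of clec-50, and those of clec-49, clec-85 and clec-140, were fractional in all 12 libraries, which happens where reads match more than 1 gene, so their separate levels are less certain.

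The symbols clec-15, clec-209 and clec-249 had 2 entries each with identical counts in all libraries. The entries of clec-209 lie on chromosome V at 2351676 to 2352932 and at 2459637 to 2460893, and those of clec-15 on chromosome I at 12631185 to 12632555 and at 12635172 to 12636542 (WBcel235). Their reads could not be assigned to 1 copy, and each pair is 1 measurement rather than 2. With the copies summed, the counts of called members below fell by the duplicates alone.

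With all 12 libraries in 1 fit and an adjusted p under 0.05, eat-2(ad1116) against wild type had the most called clec entries of the 5 pairs compared. The double mutant against wild type had more at an adjusted p under 0.01 (14 against 12). It also had more with the compared libraries alone (32 against 10, at 9.03% and 0.529% of all genes) and without eat-2(ad1116) replicate 2 or 3. Adjusted p-values throughout are those of edgeR's quasi-likelihood test with Benjamini-Hochberg adjustment over all genes tested, and errors of log2 changes are standard errors. Of 134 tested clec entries, 29 (27 symbols) were called at an adjusted p under 0.05, 22 higher and 7 lower. That is 21.6% of the tested members, against 6.21% of all 16259 genes tested (4.08% higher and 2.12% lower). Of the 29, 26 differed at least 2-fold. The median log2 change was 0.19 for the clec entries and -0.01 for all genes. Single libraries moved this count: 15 entries were called without eat-2(ad1116) replicate 3 (1.81% of all genes), 17 without its replicate 2 (1.83%), and 19 without wild-type replicate 1 (1.92%) or 3 (2.41%). Without eat-2(ad1116) replicate 1 it was 72, where 37.5% of all genes were called. Of the 29 calls, 14 were kept whichever library was left out. With the stage score as a covariate the split was 14 higher and 13 lower.

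Among the called members were clec-61 and clec-60, neighbours on chromosome II (10488730 to 10490537 and 10480043 to 10481874) whose transcripts are known to be induced by the Gram-positive pathogen Staphylococcus aureus. The level of clec-61 was 12.9, 11.8 and 11.2 CPM in eat-2(ad1116), against 0.697, 0.918 and 0.791 in wild type. This is a log2 change of 3.89 ± 0.23, or 14.8-fold (adjusted p = 1.4e-05). The level of clec-60 was 4.57, 3.79 and 4.08 CPM in eat-2(ad1116), against 0.444, 0.443 and 0.487 in wild type, 8.98-fold higher (log2 change 3.17 ± 0.21, adjusted p = 2.4e-05). The lowest eat-2(ad1116) library stood far above the highest wild-type library for both genes. The 3 wild-type libraries, with stage scores of -2.4, 0.63 and -3.22, were close to each other. The part of stage in these differences was not tested.

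On chromosome IV, clec-82 (2835664 to 2838723) had 5.3, 7.18 and 5.57 CPM in eat-2(ad1116), against 0.507, 0.855 and 0.761 in wild type. It was 8.46-fold higher (log2 change 3.08 ± 0.25, adjusted p = 8.6e-05). It overlaps Y54G2A.7 on the same strand, a gene with 2113 counts over the 12 libraries against 1554 for clec-82, so some reads may belong to the neighbour. On chromosome I, clec-17 rose 9.99-fold (2.08, 3.54 and 4.82 CPM in eat-2(ad1116), against 0.38, 0.412 and 0.244 in wild type, adjusted p = 0.0014). In both genes the library that stood apart on the stage score lay beyond the other 2 of its genotype on the side of its score, in dis-3(L75Q), eat-2(ad1116) and wild type alike, and both were called with the score as a covariate.

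Among members of higher level, clec-4, clec-7 and clec-166 rose. The level of clec-4, a gene examined in work on the pore-forming pathogen Bacillus thuringiensis, was 35.1, 59.2 and 65.4 CPM in eat-2(ad1116), against 13.3, 12.3 and 13.8 in wild type, a 4.05-fold difference (log2 change 2.02 ± 0.21, adjusted p = 0.00056). The level of clec-7 was 17.3, 34.2 and 32.1 CPM in eat-2(ad1116), against 5.2, 3.99 and 6.36 in wild type (5.37-fold, adjusted p = 0.0054). In both genes eat-2(ad1116) replicate 1, the library with the low stage score, had the lowest value of its group and lay above all wild-type libraries. Its score of -0.84 was above those of wild-type replicates 1 and 3 (-2.4 and -3.22) and below that of replicate 2 (0.63). The level of clec-166 was 14, 20.2 and 18.9 CPM in eat-2(ad1116), against 5.93, 11.2 and 5.81 in wild type (2.32-fold, adjusted p = 0.019). This call was lost without wild-type replicate 1 or 3 or eat-2(ad1116) replicate 2 or 3, with adjusted p up to 0.081.

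A set of low-level members was higher as well. The level of clec-33 was 1.31, 1.57 and 2.02 CPM in eat-2(ad1116), against 0.317, 0.253 and 0.213 in wild type (6.18-fold, adjusted p = 0.00083). The level of clec-76 was 2.11, 3.04 and 3.36 CPM in eat-2(ad1116), against 0.729, 0.76 and 0.731 in wild type (3.81-fold, adjusted p = 0.0014). For clec-15, eat-2(ad1116) had 51 counts per entry in all, at 0.437, 0.47 and 0.622 CPM, and wild type had 0 counts in each of its 3 libraries. Set against a floor of 3 counts per library, clec-15 was at least 5.44-fold higher in eat-2(ad1116) (adjusted p = 0.011). The remaining rises, in clec-26, clec-28, clec-36, clec-37, clec-54, clec-55, clec-66, clec-72, clec-172, clec-227 and clec-230, ran from 1.77-fold for clec-66 to 3.97-fold for clec-72. Of these 11, only clec-26 kept its call whichever library was left out. The call of clec-36 was lost without eat-2(ad1116) replicate 3, and those of the other 9 without eat-2(ad1116) replicate 3 and at least 1 of wild-type replicates 1 and 3, with adjusted p up to 0.14. Of these 9, all but clec-55 also lost the call without eat-2(ad1116) replicate 2, and clec-28, clec-37, clec-72, clec-172 and clec-230 without at least 2 double-mutant libraries, left out 1 at a time. For clec-172 and clec-230 it was lost as well without dis-3(L75Q) replicate 1 or 2. Called members that overlap another gene with reads were clec-55 and clec-172 beside clec-82 and clec-3, and whether counting used strand is not given in the sources used here.

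The 7 lower entries were led by 2 abundant members. The level of clec-47 (chromosome V, 15175759 to 15176324) was 54.9, 51.9 and 56.7 CPM in eat-2(ad1116), against 193, 143 and 144 in wild type. It was 2.93-fold lower (log2 change -1.55 ± 0.11, adjusted p = 5.6e-05). The level of clec-209 was 23.5, 26.8 and 30.6 CPM for each entry in eat-2(ad1116), against 118, 66.2 and 110 in wild type (log2 change -1.87 ± 0.2, adjusted p = 0.00072). The groups were well apart for both genes, and wild-type replicate 2 was the closest to the mutant for clec-209.

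The other lower members were clec-3, clec-238, clec-1 and clec-150. The level of clec-3 was 1.01, 1.72 and 1.68 CPM in eat-2(ad1116), against 5.93, 5.03 and 3.35 in wild type (3.24-fold lower, adjusted p = 0.027, and up to 0.11 without wild-type replicate 1 or eat-2(ad1116) replicate 2 or 3). The level of clec-238 was 0.709 ± 0.075 CPM in eat-2(ad1116) and 2.61 ± 1.8 in wild type, where replicate 2 stood at 4.62 (SD, n = 3 each, adjusted p = 0.031). The abundant clec-1 and clec-150 differed by less, 1.45-fold and 1.43-fold lower (adjusted p = 0.024 and 0.04). All 3 of clec-1, clec-150 and clec-238 lost the call without eat-2(ad1116) replicate 2. Further losses were without wild-type replicate 1 or 3 (clec-1, clec-150), eat-2(ad1116) replicate 3 (clec-1, clec-238), double-mutant replicate 1 or 2 (clec-150, clec-238), and double-mutant replicate 3 or dis-3(L75Q) replicate 1 or 2 (clec-150), with adjusted p up to 0.16.

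**Figure D2:**
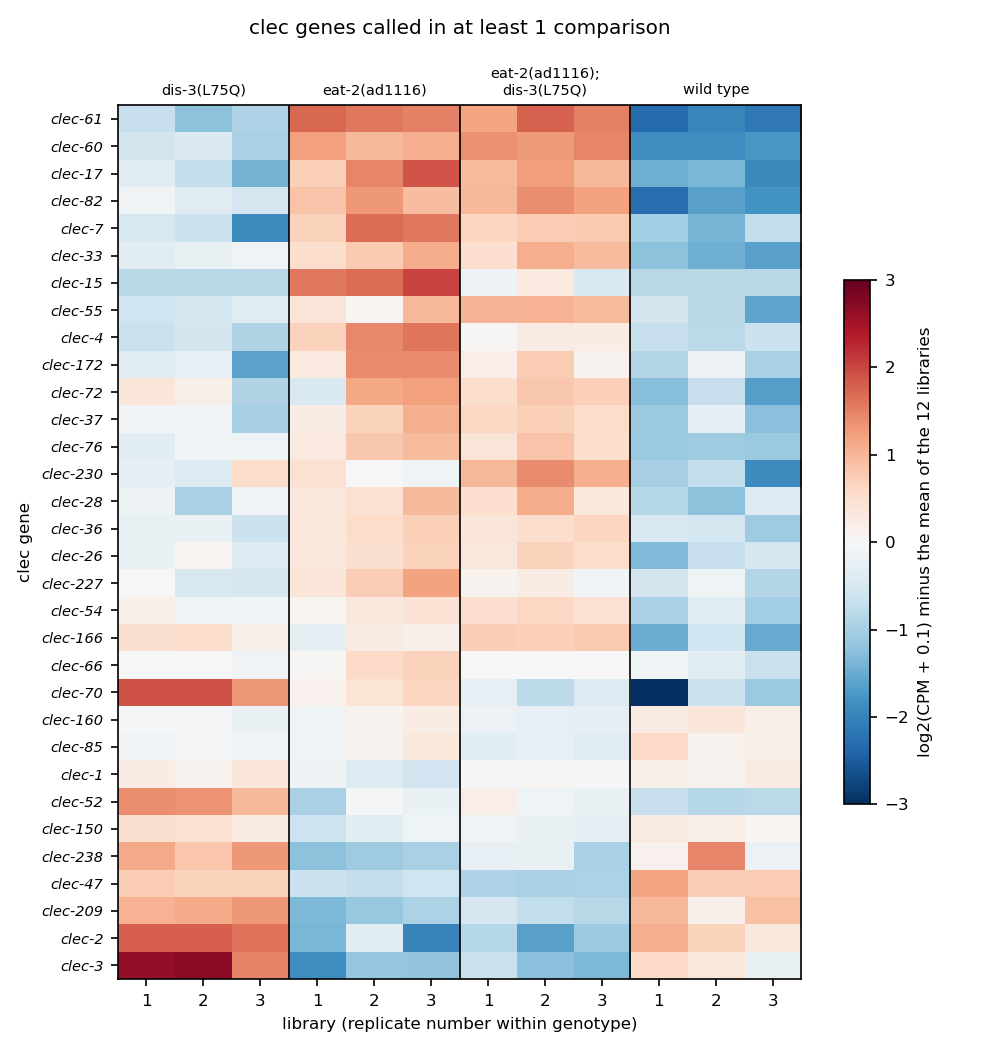
The 32 clec symbols called in at least 1 comparison (rows) in the 12 libraries (columns, by genotype and replicate number). Colour is log2(CPM + 0.1) minus the mean of that gene over the 12 libraries, red for higher and blue for lower, and rows run from highest to lowest in the strains with eat-2(ad1116) relative to those without. The upper rows (clec-61, clec-60, clec-17, clec-82) are red in both strains with eat-2(ad1116), the lower rows (clec-47, clec-209, clec-2, clec-3) are blue there, and clec-70 and clec-52 are reddest in dis-3(L75Q).

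The same allele was also compared in the other background, where no library is shared with the comparison above. Against dis-3(L75Q), the double mutant had 11 clec entries called (10 symbols), 4 higher and 7 lower, or 8.21% of the tested members against 1.24% of all genes (0.547% higher and 0.695% lower). With library totals in place of TMM scaling, 10 were higher and 7 lower, and with the stage score as a covariate 16 and 14. In both comparisons 9 entries were called, which are 81.8% of these 11 and 31% of the 29 above, and all 9 went the same way. They were clec-60, clec-61, clec-82 and clec-17, which were higher, and clec-47, clec-3, clec-150 and both clec-209 entries, which were lower. In the dis-3(L75Q) background the calls of clec-17 (adjusted p = 0.031) and clec-150 (0.045) were each lost without wild-type replicate 1, dis-3(L75Q) replicate 2, eat-2(ad1116) replicate 2 or any 1 double-mutant library. That of clec-17 was also lost without dis-3(L75Q) replicate 3 and that of clec-150 without wild-type replicate 2 or dis-3(L75Q) replicate 1, with adjusted p up to 0.24. Over all 134 tested entries, 99 (73.9%) had the same sign in both comparisons, against 55.1% of all genes. Without eat-2(ad1116) replicate 1, which only shares the estimate of the spread here, 18 entries were called (2.07% of all genes), and the number was 7 without dis-3(L75Q) replicate 2 (0.552%) or double-mutant replicate 2 (0.449%) or 3 (0.456%).

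The values of these genes in the dis-3(L75Q) background were as follows. The level of clec-61 was 8.87, 13.5 and 11.2 CPM in the double mutant, against 2.35, 1.6 and 1.99 in dis-3(L75Q) (5.64-fold, adjusted p = 0.00021). For clec-60 it was 5.0, 4.71 and 5.38 CPM in the double mutant, against 1.26, 1.37 and 0.914 in dis-3(L75Q) (4.25-fold, adjusted p = 0.00039). For clec-82 it was 5.73, 7.74 and 6.73 CPM in the double mutant, against 2.65, 2.19 and 1.99 in dis-3(L75Q) (2.95-fold, adjusted p = 0.0069). All 3 genes were already above wild type in dis-3(L75Q), and their levels in the double mutant were close to those in eat-2(ad1116).

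Among the lower members, clec-47 was at 45, 43.7 and 44.1 CPM in the double mutant, against 146, 136 and 138 in dis-3(L75Q) (3.17-fold lower, adjusted p = 5.8e-05). The level of clec-209 was 42.1, 35.7 and 33.5 CPM per entry in the double mutant, against 122, 131 and 147 in dis-3(L75Q) (3.6-fold lower, adjusted p = 0.0012). The level of clec-3 was 2.44, 1.59 and 1.5 CPM in the double mutant, against 25.3, 26.2 and 11.2 in dis-3(L75Q), 11.3-fold lower (log2 change -3.5 ± 0.39, adjusted p = 0.0013). None of these groups overlapped, and 22.2% of all genes had no overlap in this comparison. Within dis-3(L75Q), replicate 3, whose stage score is low, was also lowest in clec-3. Its neighbour clec-2 (chromosome II, 3020562 to 3023431) had 0.122, 0.0294 and 0.0897 CPM in the double mutant, against 1.29, 1.28 and 1.14 in dis-3(L75Q), 13.8-fold lower when the double mutant is set at a floor of 3 counts per library. Its call as lower (adjusted p = 0.021) was lost without any 1 of the double-mutant libraries or without dis-3(L75Q) replicate 1 or 2 (adjusted p up to 0.14).

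**Figure D3:**
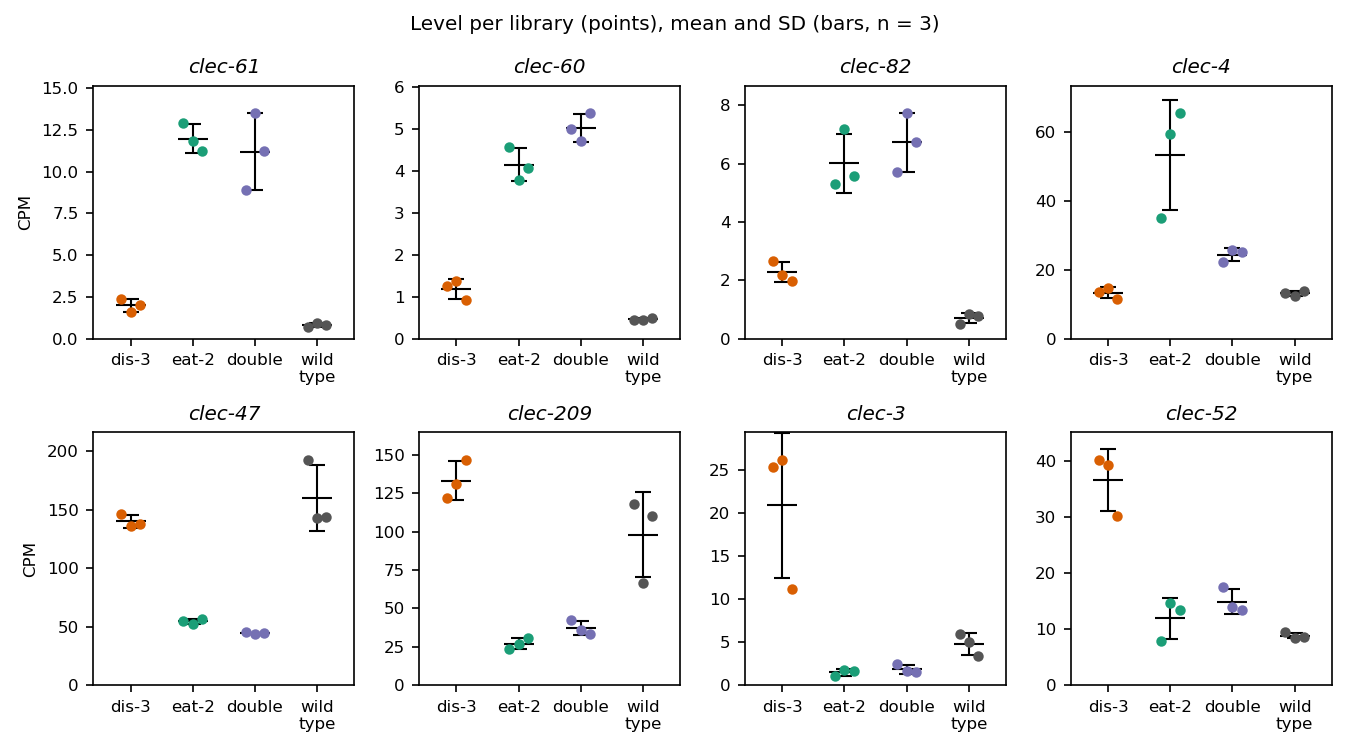
CPM of 8 clec genes in each library, with the mean and SD of 3 libraries (bars). The panels show clec-61, clec-60, clec-82 and clec-4, which were higher in eat-2(ad1116) than in wild type, clec-47, clec-209 and clec-3, which were lower, and clec-52, which was highest in dis-3(L75Q) at 40.2, 39.2 and 30.2 CPM.

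**Figure D4:**
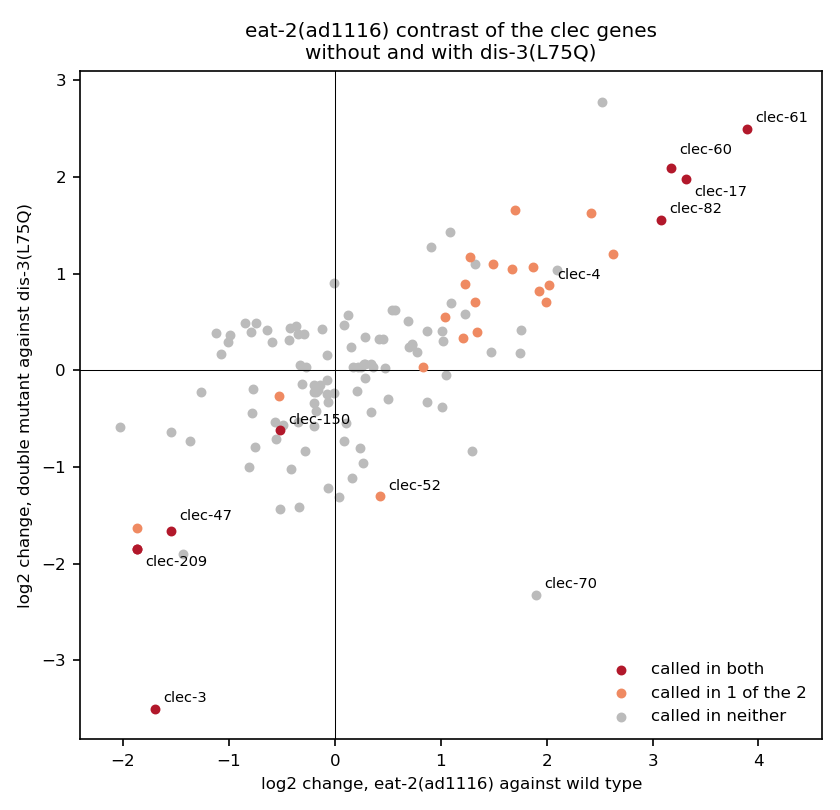
Log2 change of clec entries in eat-2(ad1116) against wild type (horizontal axis) and in the double mutant against dis-3(L75Q) (vertical axis), 2 comparisons without a shared library. Drawn are 127 of the 134 tested entries, and 7 with at most 9 counts in all libraries of a genotype were left out. Entries called in both lie at the upper right and lower left, and clec-70 lies at the lower right.

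In dis-3(L75Q) against wild type, 7 clec entries were called and all were higher, 5.22% of the tested members against 0.56% of all genes (0.32% higher and 0.24% lower). The median log2 change was 0.28 for the clec entries and 0.02 for all genes, and 39 of the 134 entries had an unadjusted p under 0.05, against 16.8% of all genes. The 7 were clec-52, clec-82, clec-60, clec-166, clec-70, clec-61 and clec-3. Of the 7, 4 (clec-52, clec-60, clec-61 and clec-70) are on a list of 5 lectins induced by Staphylococcus aureus. That list was chosen with earlier results of these data known, and the overlap was not tested. The count was 1 without dis-3(L75Q) replicate 1 (0.322% of all genes), 3 without its replicate 2 (0.303%) or without wild-type replicate 1 (0.298%) or 3 (0.352%), and 23 without wild-type replicate 2 (7.92%). With the stage score as a covariate, clec-52 and clec-166 of the 7 were called and the other 5 were not.

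The clearest of them was clec-52 (chromosome IV, 8167164 to 8168760). Its level was 40.2, 39.2 and 30.2 CPM in dis-3(L75Q), against 9.38, 8.42 and 8.61 in wild type. This was a 4.15-fold difference (log2 change 2.05 ± 0.23, adjusted p = 0.0017), and the adjusted p stayed at or under 0.011 whichever library was left out. The lowest dis-3(L75Q) library stood well above the highest wild-type library.

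The largest of the 7 folds was that of clec-70, a low-level gene on chromosome IV (3932708 to 3936307), with 5.16, 5.17 and 3.36 CPM in dis-3(L75Q), against 0.0634, 0.791 and 0.548 in wild type. It was 9.68-fold higher (log2 change 3.27 ± 0.54, adjusted p = 0.021), with 2 counts in wild-type replicate 1. Its neighbour clec-71, of the same list, had 0.908 ± 0.2 CPM in dis-3(L75Q) and 0.419 ± 0.2 in wild type and was not called (SD, n = 3 each, adjusted p = 0.28). Wild-type replicate 2, with the stage score closest to the mutants, was also the wild-type library highest in clec-70.

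Smaller differences were found for the genes that also differed in eat-2(ad1116). The level of clec-60 was 1.26, 1.37 and 0.914 CPM in dis-3(L75Q), 2.57-fold above wild type (adjusted p = 0.015). That of clec-61 was 2.46-fold higher (adjusted p = 0.025) and that of clec-82 was 3.2-fold higher (adjusted p = 0.01). The level of clec-166 was 23.7, 24.4 and 19.2 CPM in dis-3(L75Q), 2.94-fold above wild type (adjusted p = 0.018). For clec-3 the direction was opposite to that in eat-2(ad1116): 25.3, 26.2 and 11.2 CPM in dis-3(L75Q), against 5.93, 5.03 and 3.35 in wild type (4.38-fold higher, adjusted p = 0.025). These calls depended on single libraries. The calls of clec-3, clec-60, clec-61 and clec-166 were lost without dis-3(L75Q) replicate 1 and without wild-type replicate 1 or 3, that of clec-70 without dis-3(L75Q) replicate 1 or 2 or wild-type replicate 3, and that of clec-82 without dis-3(L75Q) replicate 1, with adjusted p up to 0.13. Those of clec-3, clec-60 and clec-166 were also lost without dis-3(L75Q) replicate 2, that of clec-61 without dis-3(L75Q) replicate 3 or double-mutant replicate 3, and that of clec-3 without double-mutant replicate 2.

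In the eat-2(ad1116) background the dis-3(L75Q) allele went with no called clec entry in the chosen edgeR fit, and other settings called some. When the double mutant was set against eat-2(ad1116), edgeR called 0 of 134, against 0.351% of all genes. DESeq2 called 3 (1.07% of all genes), clec-4 and clec-53 lower and clec-169 higher. The 2 called by limma-voom (0.375%) were the entries of clec-15, both lower, which are 1 measurement. By edgeR, 28 entries had an unadjusted p under 0.05, against 5.64% of all genes. The median log2 change was 0.04. The smallest adjusted p was that of clec-4, at 22.2, 25.7 and 25 CPM in the double mutant, against 35.1, 59.2 and 65.4 in eat-2(ad1116) (log2 change -1.13 ± 0.2, adjusted p = 0.051). The groups did not overlap, as in 12.4% of all genes and 29.1% of the tested clec entries in this comparison. The gene clec-4 was called lower by DESeq2 (adjusted p = 4e-05). By edgeR it was called with DESeq2-type size factors, library totals, no filter, a 1 CPM filter or the stage covariate (adjusted p from 0.013 to 0.04). It was not called by limma-voom, with a replicate block or with the compared libraries alone. Without eat-2(ad1116) replicate 1, its lowest library, 11 entries were called, clec-4 among them (log2 change -1.38 ± 0.13, adjusted p = 0.00083), where 1.55% of all genes were called. Of the 7 genes called for dis-3(L75Q) relative to wild type, none was called here, and clec-3, clec-52, clec-61 and clec-82 had overlapping groups. The level of clec-166 was 28.1, 28 and 29.4 CPM in the double mutant, against 14, 20.2 and 18.9 in eat-2(ad1116), without overlap (log2 change 0.69 ± 0.24, adjusted p = 0.64), and a fit that includes the stage score called it higher (0.74 ± 0.11, adjusted p = 0.011). For clec-60 and clec-70 the groups did not overlap either, with log2 changes of 0.28 ± 0.18 and -0.94 ± 0.5. The level of clec-52 was 17.4, 13.9 and 13.3 CPM in the double mutant, against 7.79, 14.6 and 13.3 in eat-2(ad1116), with overlapping groups and a log2 change of 0.33 ± 0.22.

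Whether the contrast of 1 allele depended on the other was tested with the interaction. By edgeR, 0 of 134 clec entries were called, against 0.0615% of all genes, with 23 at an unadjusted p under 0.05 (7.26% of all genes), and limma-voom called 0 (0.0369% of all genes). DESeq2 called 5 (0.321% of all genes), clec-70, clec-52, clec-82, clec-61 and clec-71, all negative, so that with both alleles together these genes lay below the sum of the single differences. For clec-70 the difference between the contrasts was -4.22 ± 0.73 on the log2 scale (adjusted p = 0.13 by edgeR and 8.3e-07 by DESeq2). Its level was 0.91 ± 0.18 CPM in the double mutant, 4.56 ± 1 in dis-3(L75Q) animals, 1.75 ± 0.33 in eat-2(ad1116) and 0.468 ± 0.37 in wild type (SD, n = 3 each). For clec-52 the difference was -1.73 ± 0.31 (adjusted p = 0.17 by edgeR and 0.00014 by DESeq2). In clec-52 the double mutant, at 14.9 ± 2.2 CPM, was 2.46-fold below dis-3(L75Q) at 36.5 ± 5.5 (SD, n = 3 each, adjusted p = 0.017), a call lost without dis-3(L75Q) replicate 1 or 2 or double-mutant replicate 2 or 3 (adjusted p up to 0.11). Without eat-2(ad1116) replicate 1, edgeR called 30 entries for the interaction where 13.5% of all genes were called, and clec-52 (adjusted p = 0.0064) and clec-70 (adjusted p = 0.03) were among them. Without wild-type replicate 1 it called 1 (0.0364% of all genes).

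Against wild type, the double mutant had 22 clec entries called (21 symbols), 17 higher and 5 lower, where 4.27% of all genes were called (2.54% higher and 1.73% lower). This comparison shares its wild-type libraries with both single-mutant comparisons. The genes with the smallest p were again clec-61 (13.9-fold higher), clec-60 (10.9-fold higher), clec-47 (3.61-fold lower) and clec-82 (9.46-fold higher), with adjusted p of 1.1e-05 for the first 3 and 6.4e-05 for clec-82. The level of clec-230 was 19, 25.3 and 20.2 CPM in the double mutant, against 4.72, 5.6 and 2.47 in wild type (5.04-fold, adjusted p = 0.0038). Set beside these, clec-230 had 7.67, 7.1 and 13.9 CPM in dis-3(L75Q) and 13, 9.4 and 8.68 in eat-2(ad1116), so the double mutant had the highest values. The level of clec-166 was 28.1, 28 and 29.4 CPM in the double mutant, against 5.93, 11.2 and 5.81 in wild type (3.73-fold, adjusted p = 0.0022), again the highest of the 4 groups.

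The 5 lower entries of the double mutant were clec-47, both clec-209 entries, clec-160 and clec-85. The level of clec-85, known as a target of the p38 kinase PMK-1 pathway, was 30.9, 32.4 and 29.5 CPM in the double mutant, against 56.8, 41.1 and 43.5 in wild type. It was 1.52-fold lower (adjusted p = 0.037), with other genes overlapping it on both strands, a call lost without wild-type replicate 1 or 3, dis-3(L75Q) replicate 1 or 2, eat-2(ad1116) replicate 2 or any 1 double-mutant library (adjusted p up to 0.14), and with the stage score as a covariate. With the stage score as a covariate, 13 were higher and 11 lower in place of 17 and 5. Of the 22 calls, 14 were kept whichever library was left out, among them clec-54, clec-55 and clec-76. The others, clec-4, clec-7, clec-28, clec-36, clec-37, clec-72, clec-85 and clec-160, were lost without double-mutant replicate 2 or 3 (adjusted p up to 0.17). All of these but clec-36 were also lost without double-mutant replicate 1 or wild-type replicate 1, and all but clec-160 without wild-type replicate 3. The count was 14 without double-mutant replicate 2 (1.45% of all genes) or 3 (1.4%), 35 without wild-type replicate 2 (14.5%) and 36 without eat-2(ad1116) replicate 1 (9.62%).

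Among members with a known link to a microbe, the lists behaved unevenly. Of the 5 listed lectins induced by Staphylococcus aureus, clec-60 and clec-61 were called higher in eat-2(ad1116) than in wild type. They were also called higher in double mutants than in either wild type or dis-3(L75Q). The other members, clec-52, clec-70 and clec-71, were not called between eat-2(ad1116) and wild type, with adjusted p of 0.23, 0.06 and 0.058. Of the Bacillus thuringiensis list, clec-4 was called, while clec-41 had 298, 380 and 427 CPM in eat-2(ad1116), against 280, 255 and 223 in wild type, with groups that did not overlap (as in 21.7% of all genes) and an adjusted p of 0.057. The third, clec-42, had at most 1.73 CPM in any library and was not called.

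Of the p38 and Pseudomonas aeruginosa list, clec-66 was 1.77-fold higher in eat-2(ad1116) than in wild type (40.3, 58 and 62.8 CPM, against 35.6, 30.8 and 24.4, adjusted p = 0.019), a call lost without wild-type replicate 3 or eat-2(ad1116) replicate 2 or 3. The level of clec-67 was 34.8, 76.5 and 80.8 CPM in eat-2(ad1116), against 37.2, 20.4 and 24.5 in wild type, with overlapping groups and an adjusted p of 0.054. Within eat-2(ad1116) the 2 higher values came from the libraries with the higher stage scores. Of the pair linked to Serratia marcescens, clec-49 was not called in any comparison and clec-39, with 23 counts in all libraries, was not tested.

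The family lies in clusters. With members no more than 20 kb apart counted as a group, 49 groups held 164 of the 240 entries, and 25 of the 34 called entries lay in such groups. In 24 groups with tested members none was called. The largest, on chromosome V at 16839121 to 16869840, held 13 members, of which 12 were tested. Of these, 5 were called (clec-26, clec-28, clec-33, clec-36 and clec-37), each higher than wild type in both strains with eat-2(ad1116), and the other 7 were not called. They were not the most abundant genes of the family: clec-26 had 8.27 ± 1.1 CPM in eat-2(ad1116) and 3.3 ± 0.91 in wild type, and clec-36 had 4.51 ± 0.61 CPM in eat-2(ad1116) and 1.92 ± 0.43 in wild type (SD, n = 3 each).

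Neighbours did not always go the same way. On chromosome IV at 2823746 to 2855456, clec-82 was higher and clec-85 lower in the double mutant against wild type, and the 3 members beside them were not called. On chromosome V at 14469231 to 14482317, clec-227, clec-54 and clec-55 were higher in eat-2(ad1116), and clec-57 and clec-56 were not called. The chromosome IV group at 3922165 to 4014235 held 12 members, 9 of them tested, with clec-72 and clec-76 called higher in eat-2(ad1116) and clec-70 in dis-3(L75Q). By chromosome, members called out of members tested were 3 of 11 on I, 6 of 28 on II, 2 of 7 on III, 8 of 34 on IV, 15 of 52 on V and 0 of 2 on X. Over the family it was 34 of 134, and differences between chromosomes were not tested. No clec gene lay in a run of 17 genes on chromosome V (17339084 to 17551209) that had no counts in the strains with dis-3(L75Q), and the nearest, clec-243, was 90069 bases away.

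The levels of some members varied among the libraries of a genotype along with the stage score. In dis-3(L75Q), eat-2(ad1116) and wild type, 1 library each stood apart on the score. In 28 of the 134 tested entries (20.9%) that library lay beyond the other 2 on the side of its score in all 3 genotypes, and in 15 (11.2%) on the opposite side, compared with 23.1% and 20.7% of all genes. The first share was close to that of all genes and the second was below it. The level of clec-87 was 35.7, 52.2 and 135 CPM in dis-3(L75Q) animals, 219, 27.4 and 28.6 in eat-2(ad1116), 70.4, 107 and 115 in double mutants, and 227, 96.4 and 275 in wild type. Within each genotype its high values were in the libraries with the low stage scores, and it was not called in any comparison. The level of clec-91 ran from 7.52 to 64.6 CPM and that of clec-88 from 8.43 to 62.4 with the same pattern. Levels of clec-180 went the other way, with 283, 266 and 49.9 CPM in dis-3(L75Q) animals, 72.6, 160 and 148 in eat-2(ad1116), 179, 147 and 135 in double mutants, and 20.6, 156 and 12.2 in wild type.

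**Figure D5:**
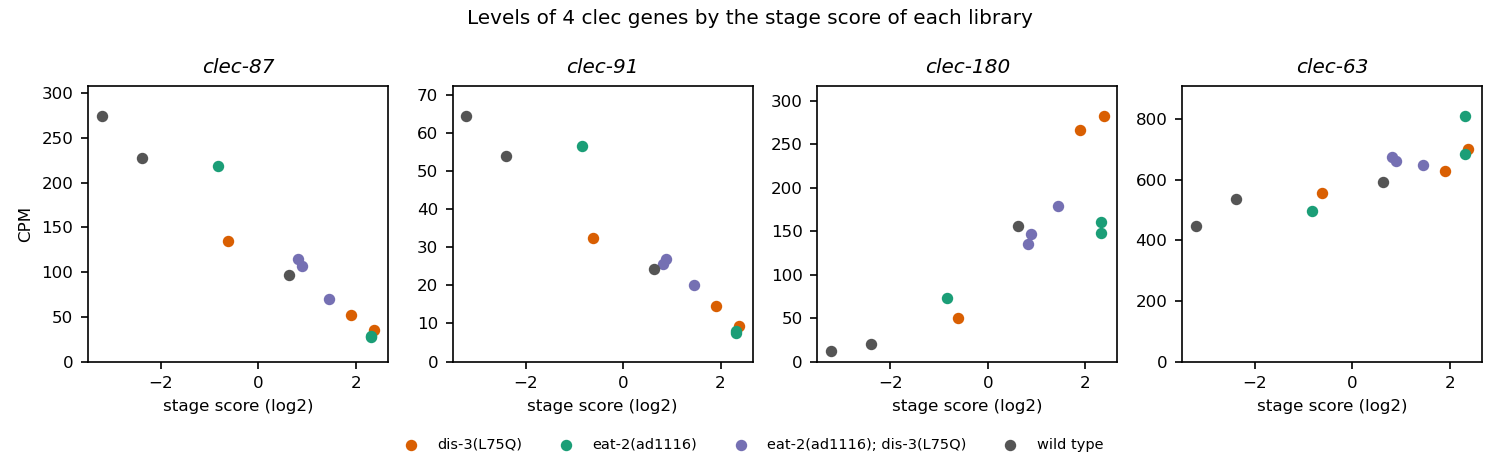
CPM of clec-87, clec-91, clec-180 and clec-63 against the stage score of each library (log2 units, higher with more molting and less oocyte RNA), coloured by genotype. The levels of clec-87 and clec-91 fall along the score, from 275 CPM for clec-87 in the lowest-scoring wild-type library, and clec-180 is lowest in the 2 low-scoring wild-type libraries.

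Of these 28 members, 9 were called in some comparison, among them clec-17, clec-70, clec-72, clec-82 and clec-166, and of the 15 on the opposite side 1 was called, clec-1. Over the family 34 of 134 tested entries were called in some comparison. The matching share of all genes was not computed, and differences between the sets were not tested. Neither clec-60, clec-61, clec-47, clec-209 nor clec-52 was in either set. Without the 3 libraries that stood apart on the score, all members called in the full set were called again, and 69 of 136 tested entries were called for dis-3(L75Q) and 84 for eat-2(ad1116), each relative to wild type. There 51.6% and 58.6% of all genes were called too, so both counts are near the background. The wild-type libraries left in that fit score -2.4 and -3.22, and all mutant libraries left score 0.82 or more. Against wild type, stage score and genotype cannot be told apart there, so the repeated calls are no check on stage. With the score as a covariate, 3 entries were called for dis-3(L75Q) (0.461% of all genes) and 27 for eat-2(ad1116) (4.77%), of which 2 and 20 were among the calls without it.

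Lists of whole tissues gave the background to these shifts. The summed level of 18 intestine markers had a median of 9925 CPM (8593 to 10564) in dis-3(L75Q) animals, 8865 (6188 to 9409) in eat-2(ad1116), 8611 (8611 to 8803) in the double mutant and 8240 (7458 to 8604) in wild type. Of these 18, 1 was called higher in eat-2(ad1116) than in wild type, and 1 in double mutants than in wild type, where 6.21% and 4.27% of all genes were called, a share near that of all genes. The summed hypodermis markers had a median of 3355 CPM (2953 to 4376) in eat-2(ad1116) and 5803 (5215 to 6544) in wild type. For sperm markers it was 684 (587 to 1742) in eat-2(ad1116) and 1888 (1476 to 2134) in wild type. For neuron markers it was 665 (454 to 700) in eat-2(ad1116) and 397 (380 to 486) in wild type. Of 14 hypodermis, 46 sperm and 20 neuron markers, edgeR called neuron markers alone, 4 higher in eat-2(ad1116) and 1 in double mutants, each relative to wild type. Of all genes, 4.08% and 2.54% were called higher in these comparisons. In eat-2(ad1116) against wild type DESeq2 called 12 neuron and 3 sperm markers (14.1% of all genes). In the same comparison limma-voom called 1 hypodermis and 1 neuron marker (5.5% of all genes). By edgeR, 17 of 20 neuron, 17 of 46 sperm and 5 of 14 hypodermis markers had an unadjusted p under 0.05 there, against 26.9% of all genes. The part of tissue makeup in the clec values was not tested.

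Other genes of intestinal immunity were set beside the lectins. Of 41 tested regulators, 3 were higher in eat-2(ad1116) than in wild type, where 4.08% of all genes were called higher, so the share is near that of all genes: pqm-1, a zinc finger transcription factor (27.2 ± 5.9 CPM in eat-2(ad1116) and 11.7 ± 1.8 in wild type, adjusted p = 0.0043), the bZIP factor zip-2 and sma-9 of the BMP-like pathway. In the double mutant pqm-1 was also higher, at 26.8 ± 1.3 CPM, than in dis-3(L75Q) at 13.4 ± 1.2 (SD, n = 3 each, adjusted p = 0.018). Against wild type the double mutant had pqm-1 and nipi-3 higher. For eat-2(ad1116) against wild type the median log2 change of the 41 was 0.42, against -0.01 for all genes. By edgeR 16 of them had an unadjusted p under 0.05 there, against 26.9% of all genes. DESeq2 called 9 (14.1% of all genes) and limma-voom 2 (5.5%) in that comparison. For dis-3(L75Q) against wild type no regulator was called by edgeR, DESeq2 or limma-voom. By edgeR, 6 of the 41 had an unadjusted p under 0.05, against 16.8% of all genes.

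Of 54 tested effectors other than lectins, 16 were higher and 6 lower in eat-2(ad1116) than in wild type, against 6.21% of all genes called. The lysozyme gene lys-7 was at 214 ± 6.7 CPM in eat-2(ad1116) and 51.2 ± 5.8 in wild type (log2 change 2.06 ± 0.12, adjusted p = 1.4e-05), and at 237 ± 33 CPM in the double mutant and 59.5 ± 4.8 in dis-3(L75Q) (adjusted p = 2.4e-05; SD, n = 3 each). Among the lower genes was irg-5, with 1.93 ± 1.2 CPM in eat-2(ad1116) and 12.6 ± 3.3 in wild type, while in dis-3(L75Q) it was higher than wild type at 63.1 ± 18 CPM (adjusted p = 0.0083 and 0.043). For dis-3(L75Q) against wild type dod-22 was also called, again higher, and in the double mutant against dis-3(L75Q) 6 effectors were higher and 8 lower, where 1.24% of all genes were called. None of the 12 galectin genes, lectins of another fold, was called in any comparison by edgeR, DESeq2 or limma-voom. By edgeR 0.0615% to 6.21% of all genes were called in these comparisons, so 0 of 12 is near that share. At most 2 galectins per comparison had an unadjusted p under 0.05 by edgeR, where 5.64% to 26.9% of all genes had.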

How the data were processed

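Whole-body RNA was sequenced in pairs on an Illumina platform, per the labels' protocols. The deposited files hold expected counts per gene, estimated fragment numbers that are neither depth- nor length-scaled, per the file headers, and the tools listed are STAR 2.7.0e (alignment) and RSEM 1.3.1 (estimation), with build WBcel235, per the submitters' processing notes. How reads were trimmed, which annotation was counted and whether strand was used is not given in the sources used here. Names, coordinates and coding lengths come from Ensembl release 115, which matched 46924 of 46934 entries. Values were exactly whole in 93.4% to 93.8% of entries above 0, and all were rounded. In 12 clec entries some counts were fractional, so similar members may exchange reads. Library totals limit precision, and floors (3 counts per library) cover counting error only.

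Under R 4.3.3, tests used edgeR 4.0.16 (robust quasi-likelihood F test, TMM scaling, filterByExpr by genotype, genotype alone, all 12 libraries in 1 fit). P-values are two-sided and, unless named unadjusted, Benjamini-Hochberg adjusted over 16259 genes, and a gene was called under 0.05. CPM use TMM-scaled sizes. The test was checked on simulated counts. Members named are those called (up to 25 per comparison), the 12 highest per kilobase, and the microbe lists. Genes following the stage score were named after their values were seen. The members and lists were chosen with earlier results of these data known. P-values measure the spread between harvests of 1 strain. Alternatives were other scalings, filters, thresholds and tools (DESeq2 1.42.0, limma 3.58.1), a replicate block, a stage covariate, fewer libraries and, added after seeing the data, identical copies summed. Plots used matplotlib 3.10.9. No RefSeq sequence was used here.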

Additional observations from a re-analysis of the deposited data

How the results depend on the processing

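No call on a named clec gene reversed under any alternative: of 69 calls, 1719 alternative fits gave 1424 kept and 295 lost, and 32 calls were never lost. At an adjusted p under 0.01 the counts of called entries were 1 (dis-3(L75Q) against wild type), 12 (eat-2(ad1116) against wild type), 14 (double mutant against wild type) and 7 (double mutant against dis-3(L75Q)). For all genes the share at this threshold was not computed, so these 4 counts have no background beside them. DESeq2 gave 15, 48, 39 and 25 in that order (2.08%, 14.1%, 11.1% and 3.75% of all genes), with 3 for the double mutant relative to eat-2(ad1116) and 5 for the interaction. Fitting the compared libraries alone gave 1, 10, 32 and 19 (0.192%, 0.529%, 9.03% and 1.61% of all genes). Library totals gave 42 for eat-2(ad1116) and 31 for double mutants against wild type (10.5% and 6.43%), and 17 for double mutants against dis-3(L75Q) (1.51%). For the double mutant relative to eat-2(ad1116), with 0 called in the chosen fit, DESeq2-type size factors, library totals, no filter and a 1 CPM filter each gave 1, which was clec-4 each time. There limma-voom gave 2, both clec-15 entries, and the stage covariate 5, clec-4 among them (1.06% of all genes). The covariate gave 3 for dis-3(L75Q) against wild type, and 30 (4.5%) when double mutants were set against dis-3(L75Q). Without the 3 libraries apart on stage the counts were 69, 84, 70, 61, 49 (double mutant relative to eat-2(ad1116)) and 72 (interaction), with 25% to 58.6% of all genes called. The summed clec level of the double mutant moved to 3276 CPM with DESeq2-type factors and 3441 with library totals. Leaving out 1 library gave 1 to 23, 15 to 72, 14 to 36, 7 to 18, 0 to 11 and 0 to 30 calls in the same order. The causes were not tested. Same-numbered libraries did not deviate together (r from -0.63 to 0.42 over 18 pairs, 7 above 0.1, and 2 of 12 libraries closest to their own number). No pairing by number was seen, but these values cannot exclude a shared harvest, and the labels do not say whether numbers mark one. A replicate block gave 4, 17, 15 and 7 calls (0.381%, 3.05%, 2.41% and 0.707% of all genes) in the first 4 comparisons named and 0 in the other two. At 31812392 to 32773803 counts per library, 106 members of few counts remained untested.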
